A study of Caenorhabditis briggsae with 9 samples.

Results

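In Caenorhabditis briggsae larvae of the strain carrying gu163, an allele of Cbr-spr-4, 126 genes without a symbol stood above every library of the other strains. Each was picked by its counts. Its level had to reach 1 CPM (the count as a share of the library total, scaled per 1e+06 counts) in all 3 gu163 libraries, and each gu163 library had to lie at least 2-fold above the highest of the 6 AF16 and gu167 libraries. The count table held 22922 genes, of which 17023 had no symbol in the RefSeq annotation, so the 126 genes are 0.740% of the unnamed genes. Among the 5899 genes with a symbol, 61 (1.03%) met the same expression rule, which brings all genes that met it to 187 (0.816% of the table). All 126 are annotated as protein coding.

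RNA sequencing was done on 9 libraries of total RNA, with 3 libraries for every strain. AF16 is the wild-type isolate. The gu163 strain carries an allele of Cbr-spr-4, for which the labels also give the name Cbr-ivp-1. The gu167 strain carries an allele of Cbr-htz-1, or Cbr-ivp-2. Every library came from whole L3 larvae kept on NGM plates at 20 degrees, bleached and synchronized 2 times, and staged under Nomarski optics shortly before the vulval precursor cells divided. Replicates are labelled as independent biological ones. The labels give neither the molecular lesion of either allele nor the ages of single animals.

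In Caenorhabditis elegans, SPR-4 is a zinc-finger protein found through mutations that suppress a presenilin defect, and genes of that suppressor group act in transcriptional repression. HTZ-1 is the histone variant H2A.Z, which replaces H2A in a subset of nucleosomes. Worm genomes carry many genes as tandem copies of one family, most of them toward the chromosome arms, and many others in operons that share a promoter, so neighbouring genes can share both sequence and transcription.

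Libraries held 8294524 to 14095189 counts, so 3 counts correspond to 0.213 to 0.362 CPM. The scaling factors were lowest in AF16 replicate 3 (0.746) and highest in gu167 replicate 3 (1.20). Cbr-spr-4 transcript was at 221, 229 and 265 CPM in gu163, whereas AF16 had 90.8, 113 and 89.4 CPM and gu167 had 146, 175 and 173 CPM. It was thus present and highest in the strain that carries its mutation. Cbr-htz-1 lay between 55.0 and 70.7 CPM in all 9 libraries. CPM values are not corrected for transcript length, so levels are compared between strains and not between genes.

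The mean level of the 126 genes in gu163 ran from 1.02 to 564 CPM with a median of 10.7 CPM. The median of their mean levels was 0.649 CPM in AF16 and 0.880 CPM in gu167. The 126 genes together took up 5008, 4792 and 4906 CPM in the gu163 libraries. They took up 404, 622 and 311 CPM in AF16 and 428, 509 and 447 CPM in gu167. The 3 gu163 sums lay close together. The rule itself put each of them at least 2-fold above the other 6, so that gap is no separate result. In these whole-animal RNA samples, more cells of a type and more RNA per cell cannot be told apart.

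Many of the genes were close to silent outside gu163. Every AF16 library was under 1 CPM for 64 of the genes, and all 6 AF16 and gu167 libraries were for 49. Mean levels in gu163 were at least 10-fold those of both other strains for 51 genes. The ratio of the lowest gu163 library to the highest other library had a median of 3.44 and a largest value of 105. It was at least 3 for 76 genes, at least 10 for 22 and at least 20 for 13. CBG18534 had no count in any of the other 6 libraries and reached 3.10, 1.47 and 1.37 CPM in gu163, at least 20.3-fold higher than AF16 when 3 counts over the AF16 group are taken as the floor. CBG27316 had no count in AF16 and 6.31, 2.75 and 5.66 CPM in gu163, at least 52.0-fold higher by the same floor.

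**Figure D1:**
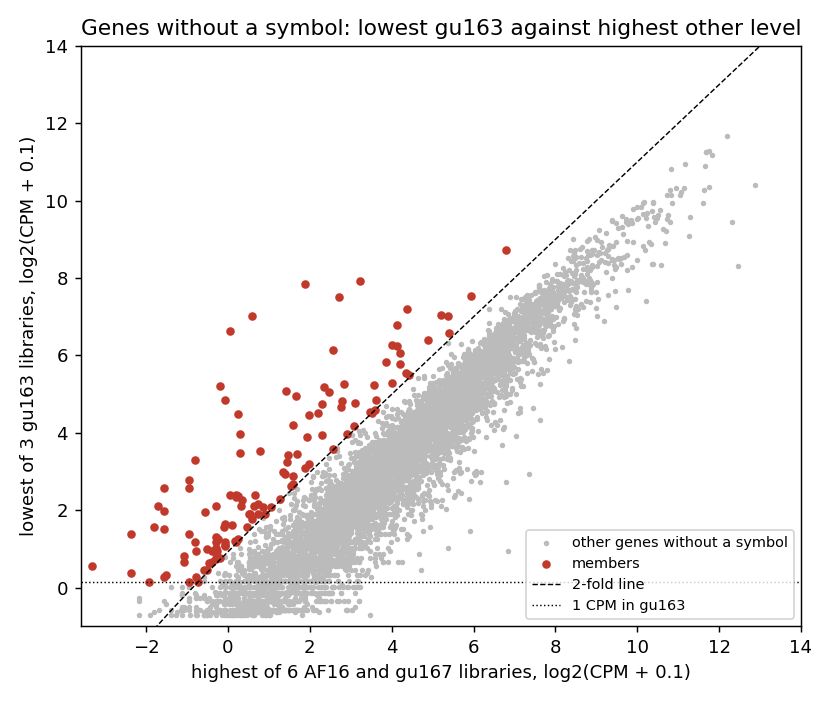
Each point is 1 gene without a symbol, placed by the highest of its 6 AF16 and gu167 libraries (horizontal axis) and the lowest of its 3 gu163 libraries (vertical axis), both as log2(CPM + 0.1). The 126 selected genes (red) lie above the 2-fold and 1 CPM lines by construction. Several stand far above them, such as CBG11551 with a ratio of 105.

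Because the rule used the levels in all 3 strains, tests of gu163 against another strain describe the selection and support nothing. With edgeR's quasi-likelihood test, 119 of the 126 genes were called higher in gu163 than in AF16 and 0 lower at an adjusted p under 0.05, in a fit where 6.36% of all 12507 genes tested were called higher and 2.94% lower. All 126 genes passed the filter on low counts. At the edge of the rule, CBG05483 (ratio 2.02), CBG05432 (2.02) and CBG03652 (2.03) lay just inside the 2-fold bound. CBG00559 (just under 2), CBG08470 (1.99) and CBG03720 (1.97) lay just outside. By level, CBG03652, CBG00544 and CBG03389 were just inside with a lowest gu163 library of 1.01 CPM, and CBG19647, CBG13980 and CBG17075 were just outside at 0.917 CPM.

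The gene with the largest ratio was CBG11551 on chromosome V. It measured 102, 98.5 and 118 CPM in gu163 against 0.104, 0.746 and 0.939 CPM in AF16 and 0.723, 0.497 and 0.241 CPM in gu167. In mean level that is 178-fold over AF16 and 218-fold over gu167. Neither of the other strains reached 1 CPM in any library.

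CBG06596, also on V, was at 231, 129 and 196 CPM in gu163. It was at 0.727, 0.746 and 1.41 CPM in AF16 and at 1.04, 1.14 and 0.603 CPM in gu167. The mean was 186 ± 51.9 CPM (SD, n = 3) in gu163, 193-fold that of AF16. The gu163 libraries differed among themselves but stayed far from all 6 others.

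CBG15363 on chromosome I was at 229, 265 and 300.2 CPM in gu163. Its levels were 1.56, 3.56 and 3.0 CPM in AF16 and 1.53, 3.41 and 2.29 CPM in gu167. The AF16 and gu167 libraries of this gene overlapped. Its mean fold over AF16 was 97.7. The other genes among the 10 with the largest ratio and a mean of at least 5 CPM were CBG18528, CBG23492, CBG18531, CBG18532, CBG21994, CBG26924 and CBG13439.

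**Figure D2:**
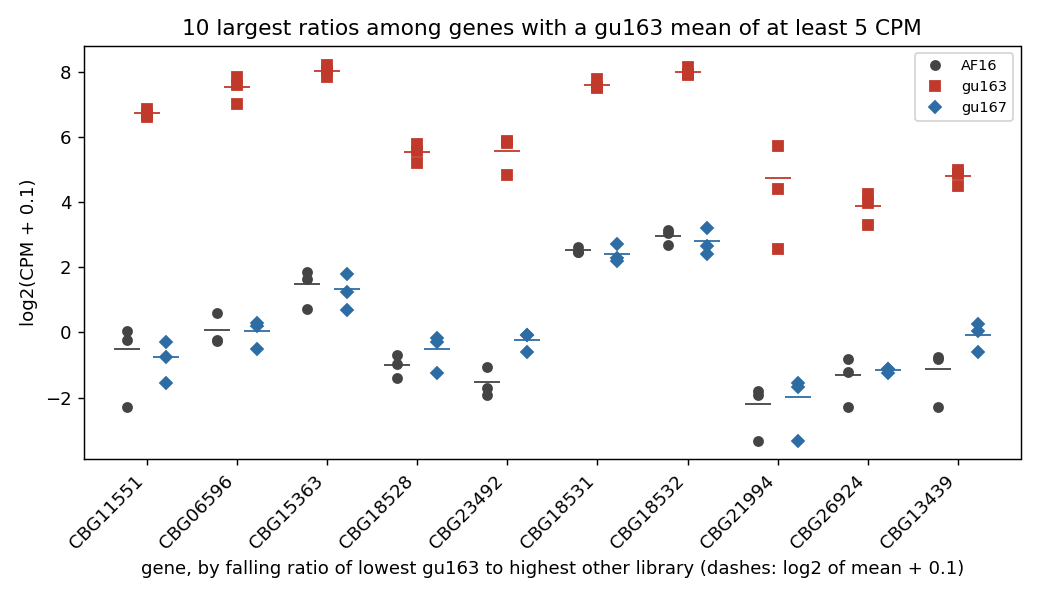
Levels of the 10 genes with the largest ratio of the lowest gu163 library to the highest other library among those with a gu163 mean of at least 5 CPM, as log2(CPM + 0.1), with 1 point per library (3 per strain) and a dash at the log2 of the strain mean + 0.1. The gu163 libraries sit apart from the others in every gene, by construction. They spread widely only in CBG21994, from 5.83 to 52.8 CPM.

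The gene with the highest mean count share in gu163, CBG13437 on chromosome II, also varied in wild type. It was at 424, 729 and 539 CPM in gu163, at 12.8, 110.4 and 42.6 CPM in AF16, and at 39.7, 39.6 and 34.0 CPM in gu167. The AF16 libraries enclosed the gu167 libraries, and the gu163 mean was 10.2-fold the AF16 mean. On the same chromosome, with 1 gene between, CBG13439 was at 22.5, 31.9 and 29.4 CPM in gu163. Its other 6 libraries ran from 0.104 to 1.09 CPM. CBG07103 on II was steadier in gu163, at 129, 141 and 138 CPM, against 23.3, 41.4 and 6.48 CPM in AF16 and 6.67, 15 and 8.44 CPM in gu167. CBG04723 on V was at 192, 77.0 and 165 CPM in gu163 and between 5.16 and 16 CPM elsewhere.

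The genes were spread over all chromosomes but unevenly. Chromosome V held 48, which is 1.28% of its unnamed genes, and II held 26 (1.02%). Without the small separate sequence described below, V held 37 (0.991%), a share no higher than that of II. Chromosome IV held 22 (0.878%), I held 11 (0.489%), III held 9 (0.428%) and X held 6 (0.196%). The remaining 4, CBG23661, CBG26649, CBG24871 and CBG26756, lie on sequences with no chromosome assigned. CBG23661, for example, was at 133, 184 and 166 CPM in gu163, at 22, 25 and 13.4 CPM in AF16 and at 21.4, 37 and 33.5 CPM in gu167. Cbr-spr-4 itself lies near one end of chromosome I, at place 14 of 3210 genes, and none of the 126 genes lay within 100 places of it. The nearest was 111 places away. With only 11 of the set among the 3210 genes of chromosome I, an empty stretch of that length says little about distance.

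Neighbouring genes often met the rule together. Leaving aside the 4 genes of no assigned chromosome, 35 (28.7%) were directly next to another of the set, and 42 had at most 1 gene between. Their 231 distinct immediate neighbours included 38 that met the expression rule, or 16.5%, whereas 0.829% of all genes with a place in the order met it. The adjacent genes formed 14 runs, of which 1 held 6 genes, 3 held 3 genes and 10 were pairs. Without the separate chromosome V sequence described next, 25 of 111 genes (22.5%) were next to another, and 28 of 216 neighbours (13%) met the rule. Among the 61 genes with a symbol that met the rule, 5 were next to another gene that did. These shares are descriptions. Genes of one tandem family can share reads, and that share was not measured here.

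The densest group lay among genes that RefSeq assigns to chromosome V. They were taken to form a small separate sequence because start positions fall back in the table there, not because the table names one. So delimited, it carries 27 genes, 25 of them without a symbol, and 11 of those 25 (44%) met the rule. The rest of chromosome V reached 0.991%. All 11 fell within 14 consecutive genes from CBG18520 to CBG18535. Their summed level was 658, 698 and 637 CPM in gu163, against 40.0, 38.7 and 24.7 CPM in AF16 and 39.9, 38.5 and 41.6 CPM in gu167. The other 3 genes inside those 14 had few counts and were not tested. CBG18530 had 42 counts in gu163, 1 in AF16 and 3 in gu167, and CBG18533 had 38, 0 and 2. Both passed the 2-fold bound of the rule, with ratios of 2.85 and 6.08, and missed it on the level of 1 CPM. CBG18521 had 5 counts in gu163, 0 in AF16 and 1 in gu167.

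CBG18532 and its neighbour CBG18531 had the highest count shares of the group. CBG18532 was at 285, 246 and 242 CPM in gu163, at 6.34, 8.21 and 8.73 CPM in AF16 and at 9.24, 5.18 and 6.15 CPM in gu167. CBG18531 was at 219, 182 and 185 CPM in gu163, at 5.50, 6.05 and 5.44 CPM in AF16 and at 6.51, 4.47 and 4.82 CPM in gu167. Both were highest in gu163 replicate 1, and in both the AF16 and gu167 libraries overlapped. Their mean folds over AF16 were close, at 33.2 for CBG18532 and 34.5 for CBG18531.

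The run of 6 goes from CBG18524 to CBG18529. CBG18528 was at 37, 55.7 and 47.7 CPM in gu163 and at no more than 0.780 CPM in any of the other 6 libraries, a mean fold over AF16 of 116. CBG18525 was at 30.6, 62.4 and 43.5 CPM in gu163, against 1.56, 3.07 and 1.5 CPM in AF16 and 2.17, 2.63 and 1.81 CPM in gu167. CBG26924 was at 9.74, 19 and 15.7 CPM in gu163 and at 0.104 to 0.469 CPM elsewhere. These 3 genes were lowest in gu163 replicate 1, the library in which CBG18531 and CBG18532 were highest. CBG18524 was at 15.5, 32.9 and 23.8 CPM in gu163 with an AF16 spread from 1.03 to 6.13 CPM and a mean fold of 6.78. CBG26923 was at 1.15, 2.93 and 2.66 CPM in gu163 and at no more than 0.249 CPM elsewhere. CBG18529, at 7.34, 7.15 and 5.15 CPM in gu163, was highest in replicate 1, whereas the other 5 genes of the run were lowest there. Just before the run, CBG18520 was already transcribed in AF16 at 19.3, 16.7 and 6.19 CPM and reached 46.3, 85.1 and 66.2 CPM in gu163, the smallest mean fold of the 11 at 4.68. At the other end, CBG18535 had 1 count in all of AF16 and 2.52, 4.13 and 4.38 CPM in gu163, a count ratio of 121.98 with an exact 95% interval from 21.5 to 4858 that covers counting error only.

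The expression filter left 5 genes of this sequence that did not meet the rule for the test. For the unnamed ones among them, failing the rule limits how far gu163 can lie above the other strains. For these 5, edgeR's quasi-likelihood test called 2 higher in gu163 than in AF16, where 6.36% of all genes tested were. CBG26921 rose by 2.17 ± 0.29 (log2, SE; adjusted p = 0.00133), from 4.67, 4.15 and 2.44 CPM to 11.1, 26 and 20.1 CPM. CBG18514 rose by 1.71 ± 0.36 (adjusted p = 0.0153), from 13.1, 10.9 and 2.63 CPM to 21.4, 39.4 and 33.5 CPM. In both genes every gu163 library was above every AF16 library. Without gu163 replicate 2 the adjusted p of CBG18514 became 0.0505. The difference was 0.65 ± 0.21 (adjusted p = 0.0798) for Cbr-cyp-33C9, a cytochrome P450 gene, and did not pass, whereas DESeq2 gave it an adjusted p of 0.0355. It was 0.98 ± 0.81 (adjusted p = 0.506) for CBG18515 and -0.45 ± 0.30 (adjusted p = 0.412) for CBG18537. Thus 3 of the 5 did not pass.

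**Figure D3:**
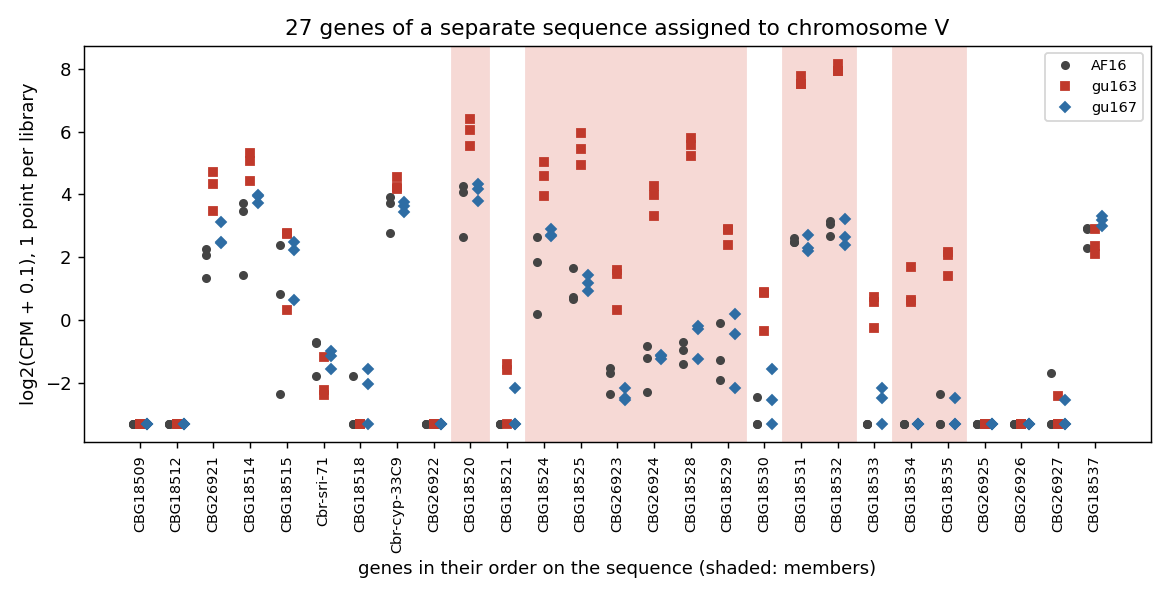
Levels of the 27 genes taken as a separate sequence of chromosome V, in gene order, as log2(CPM + 0.1) with 1 point per library (3 per strain). Shading marks the 11 genes that met the rule. They fill 11 of the 14 places from CBG18520 to CBG18535. In them the AF16 and gu167 points lie below the gu163 points by construction.

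A looser group lay on chromosome II. Of 12 genes in a row from CBG21949 to CBG03660, 6 met the rule, namely CBG21949, CBG03650, CBG03652, CBG03654, CBG03659 and CBG03660. Unlike most genes of the V sequence, several were well expressed in wild type. CBG03654 was at 39.4, 37.1 and 20.9 CPM in AF16, at 34.3, 42.4 and 38.5 CPM in gu167 and at 144, 95.3 and 147 CPM in gu163. CBG03659 was steady outside gu163, between 22.1 and 29.7 CPM, and reached 104, 84.3 and 114 CPM in gu163. CBG03660, next to it, was at 379.9, 186 and 299 CPM in gu163, at 59.9, 61.2 and 11.9 CPM in AF16 and at 24.2, 24.8 and 14 CPM in gu167. The mean folds over AF16 were 3.97, 3.65 and 6.50 in that order. CBG21949, at 9.40, 71 and 26.9 CPM in gu163 and 0.208 to 2.63 CPM elsewhere, was among the most variable of all 126 genes.

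Some other genes of the same stretch rose as well. In the 19 genes around it, 7 outside the set were tested. Of all genes tested, 6.36% were called higher in gu163 than in AF16 and 2.94% lower. Among the 7, edgeR's quasi-likelihood test called 4 higher in gu163 and 0 lower. Of these, Cbr-gpa-11 met the expression rule and is outside the set only because it has a symbol, so 3 of the 6 that failed the expression rule were called. Cbr-sco-1, whose relatives encode a copper chaperone for assembly of cytochrome c oxidase, was at 133, 122.02 and 159.6 CPM in gu163 against 80.8, 63.3 and 29.5 CPM in AF16. It rose by 1.15 ± 0.24 (log2, SE; adjusted p = 0.0130). Cbr-gpa-11, a G protein alpha subunit gene, was at 2.64, 2.93 and 4.55 CPM against 1.25, 0.746 and 0.939 CPM and rose by 1.62 ± 0.33 (adjusted p = 0.0124). In both, no gu163 library overlapped an AF16 library. Without gu163 replicate 3 the adjusted p became 0.0508 for Cbr-sco-1 and 0.0673 for Cbr-gpa-11. The unnamed genes CBG25469 (1.86 ± 0.40, adjusted p = 0.0167) and CBG03656 (1.02 ± 0.28, adjusted p = 0.0459) were the other two called. Their calls were lost in 5 alternatives for CBG25469, with adjusted p up to 0.0662, and in 8 for CBG03656, up to 0.133.

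**Figure D4:**
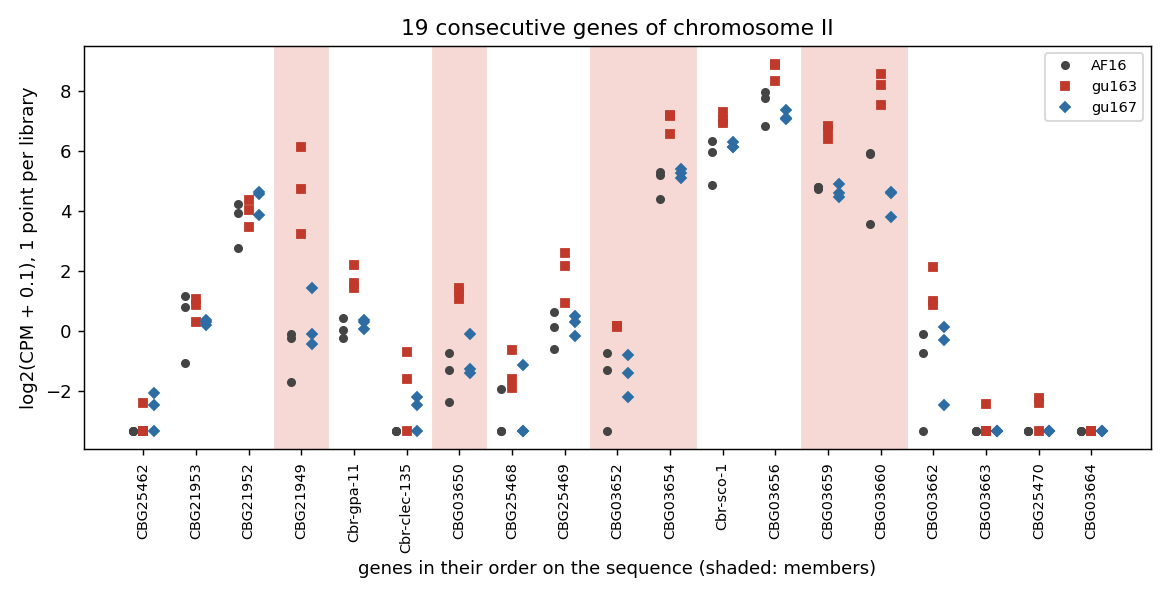
Levels of 19 consecutive genes of chromosome II, in gene order, as log2(CPM + 0.1) with 1 point per library (3 per strain), with the 6 genes that met the rule shaded. The gu163 points are uppermost from CBG21949 to CBG03660 in most genes, including the unshaded Cbr-sco-1 and Cbr-gpa-11.

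Runs of 3 lay at other places on II and V. On V, CBG23492, CBG23491 and CBG23490 were followed directly by Cbr-srh-25, a gene of the srh family of chemoreceptor-like membrane proteins. CBG23492 was at 28.7, 56.7 and 58.5 CPM in gu163, at 0.208, 0.166 and 0.375 CPM in AF16 and at 0.562, 0.851 and 0.844 CPM in gu167. Cbr-srh-25 was at 19.8, 25.9 and 28.7 CPM in gu163, at 2.08, 3.32 and 2.16 CPM in AF16 and at 3.45, 7.45 and 5.79 CPM in gu167. It rose in gu163 by 3.11 ± 0.28 (log2, SE; edgeR adjusted p = 0.00012) and itself met the expression rule. By that rule, the 4 neighbours had their 3 gu163 libraries above all others.

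On II, CBG07170, CBG07169 and CBG07168 were all highest in gu163 replicate 2. CBG07170 was at 38.1, 196 and 53.4 CPM there, CBG07169 at 22, 38.3 and 25.6 CPM, and CBG07168 at 25.3, 41.8 and 31.1 CPM. None exceeded 7.02 CPM in another library. A second V run, CBG21991, CBG21992 and CBG21994, was highest in gu163 replicate 1, with CBG21994 at 52.8, 21.2 and 5.83 CPM. The annotated span of CBG21991 overlaps both of the others, and reads from overlapping genes cannot be told apart here, so these 3 may count the same reads in part. With 1 to 3 counts in all of AF16, the count ratio was 160 for CBG21992, with an exact 95% interval from 54.3 to 776 that covers counting error only and not the spread between libraries.

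The pair CBG10310 and CBG10309 on II moved together from library to library. CBG10310 was at 164, 56.3 and 112 CPM in gu163, at 0.727, 1.33 and 1.97 CPM in AF16 and at 4.74, 14.5 and 3.13 CPM in gu167. CBG10309 was at 174, 66.5 and 120.2 CPM in gu163, at 0.623, 2.24 and 2.63 CPM in AF16 and at 5.54, 18.4 and 3.98 CPM in gu167. Both were lowest in AF16 replicate 1 and highest among gu167 libraries in replicate 2. The pair CBG27237 and CBG04759 on V had the same order in gu163, at 53.9, 15.7 and 35.3 CPM and at 28.9, 10.6 and 18.9 CPM.

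Genes with a symbol could not enter the set, so named genes next to it were compared on their own. There were 45 such genes and 39 were tested. With edgeR's quasi-likelihood test, 5 of the 39 (12.8%) were called higher in gu163 than in AF16, where 6.36% of all genes tested and 6.28% of named genes tested were. Of those 5, Cbr-srh-25, Cbr-phat-3 and Cbr-gpa-11 met the expression rule themselves. Only 1 (2.56%) was called lower, beside 2.94% of all genes. Their median log2 fold change was -0.06, near the -0.01 of all genes, so most named neighbours did not rise. Without gu163 replicate 3 the count called higher was 2.

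Beside Cbr-srh-25, Cbr-sco-1 and Cbr-gpa-11, the neighbours called higher were the genes on either side of CBG01405 on V. Cbr-phat-3, whose C. elegans relatives are named for toxin-related proteins of the pharyngeal glands, was at 5.73, 3.30 and 3.35 CPM in gu163 and at 0, 0.166 and 0.282 CPM in AF16. It rose by 4.50 ± 0.68 (log2, SE; edgeR adjusted p = 0.00293). Cbr-tag-293 was at 9.86, 3.85 and 11.2 CPM in gu163 and at 0.208, 0.332 and 1.13 CPM in AF16, a rise of 3.69 ± 0.81 (adjusted p = 0.0186). Its call was lost in 5 alternatives, with adjusted p up to 0.0688. CBG01405, between them, was at 4.70, 1.56 and 3.17 CPM in gu163 and at no more than 0.469 CPM in AF16. The neighbour called lower, the cuticle collagen gene Cbr-col-146 beside CBG19330, was at 29.2, 17.1 and 36.1 CPM in gu163 and at 41.1, 56.5 and 59.5 CPM in AF16. Its difference of -1.12 ± 0.31 (adjusted p = 0.0495) lost the call in 12 alternatives, with adjusted p up to 0.179.

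The 126 genes were also compared between gu167 and wild type, a comparison on which the rule bears too. It left out genes whose gu167 or AF16 libraries came within 2-fold of gu163. For 49 of the genes all 6 AF16 and gu167 libraries were under 1 CPM. These 49 passed the filter on low counts mainly through gu163 and had few counts for this comparison. The counts therefore describe the selected genes only, and a likeness to the shares of all genes is no result about gu167. The comparison shares its AF16 libraries with that of gu163. With edgeR's quasi-likelihood test, 2 of the 126 were called higher in gu167 than in AF16 and 0 lower, where 1.97% of all genes tested were called higher and 0.128% lower. At an unadjusted p under 0.05 the counts were 11 higher and 12 lower, where 8.12% and 6.87% of all genes tested passed. DESeq2 called 5 higher and 4 lower, beside 3.29% and 1.8% of all genes. The median log2 fold change was -0.01, beside -0.02 over all genes tested. The gu167 libraries all lay above the AF16 libraries for 21 genes and all below for 3, where 19.6% and 1.85% of all genes tested did so.

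Both genes called in gu167 belong to the V run that ends at Cbr-srh-25. CBG23490 was at 3.69, 4.90 and 5.43 CPM in gu167, at 0.519, 0.995 and 0.469 CPM in AF16 and at 33.2, 58.8 and 52.0 CPM in gu163. It rose in gu167 by 2.49 ± 0.28 (log2, SE; adjusted p = 0.000938). CBG23491 was at 2.81, 3.83 and 4.46 CPM in gu167, at 0.831, 1.08 and 0.188 CPM in AF16 and at 22.7, 43.0 and 39.7 CPM in gu163, a rise in gu167 of 2.11 ± 0.37 (adjusted p = 0.0153). For both, the 3 strains did not overlap, with gu167 between AF16 and gu163. The call for CBG23491 was lost in 6 alternatives, with adjusted p up to 0.0712. The gu167 difference was 1.28 ± 0.49 (adjusted p = 0.254) for CBG23492 and 0.84 ± 0.28 (adjusted p = 0.186) for Cbr-srh-25, and neither passed.

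The 3 gu163 libraries agreed for most genes. The highest was within 2-fold of the lowest for 84 of the 126 genes, and the median of that ratio was 1.63. It was over 4 for 7 genes, CBG07170, CBG21949, CBG07436, CBG21994, CBG09625, CBG11530 and CBG21991. CBG07436 on X spread most, at 73.8, 16.8 and 3.0 CPM in gu163 with 0.0829 to 0.844 CPM elsewhere. CBG09625 was at 46.1, 13.7 and 3.86 CPM in gu163 and at no more than 0.241 CPM elsewhere. Replicate 1 was the highest gu163 library for 60 genes, replicate 2 for 35 and replicate 3 for 31. Of the 61 genes with a symbol that met the rule, 18 were col genes, which encode cuticle collagens, and 17 of these differed over 4-fold between gu163 libraries with replicate 1 highest in 17. Among the other 43 named genes, 4 differed over 4-fold.

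**Figure D5:**
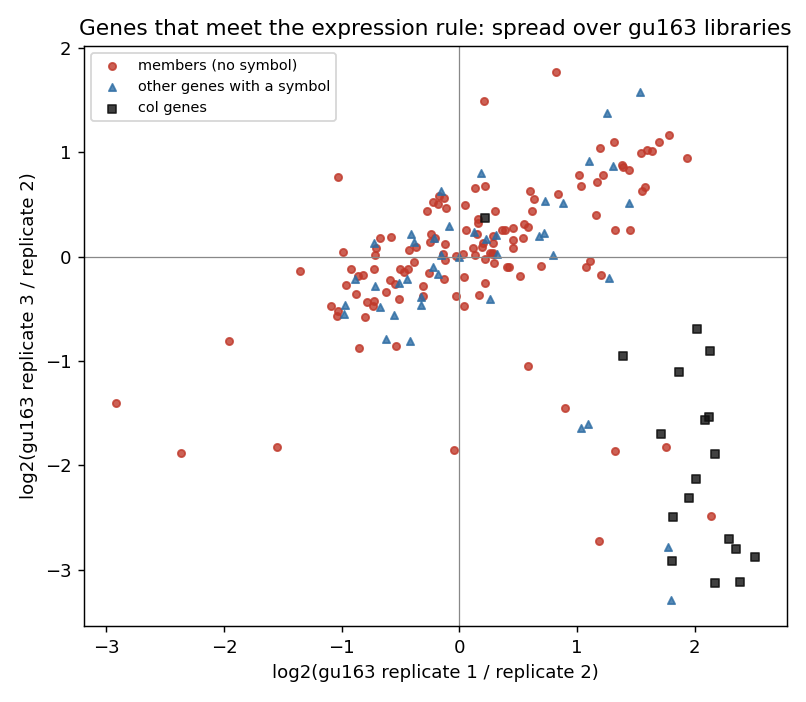
Ratios between gu163 libraries for the genes that met the rule, replicate 1 over replicate 2 (horizontal axis) and replicate 3 over replicate 2 (vertical axis), both log2. Most of the 126 unnamed genes (red circles) lie near the origin, whereas most of the 18 col genes (black squares) lie at the lower right, where replicate 1 is highest and replicate 3 lowest.

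The marker lists were chosen with earlier results of these data known, so the shares called are descriptions and support nothing. Germline and sperm markers were called higher in gu163 at shares above the 6.36% of all genes tested. Of 21 germline markers in the table, 20 were tested and 13 were called higher in gu163 by edgeR's quasi-likelihood test, with 0 lower. Their summed level was 317 to 373 CPM in gu163, 191 to 213 CPM in AF16 and 350 to 412 CPM in gu167, where 11 were called higher beside 1.97% of all genes. Without AF16 replicate 2 the gu163 count was 8. Of 13 sperm markers, 6 were tested and 4 were called higher in gu163, and 2 in gu167. Their sums were 109, 89.7 and 65.0 CPM in gu163, 25.7 to 41.4 CPM in AF16 and 46.5 to 65.0 CPM in gu167. Of the gu163 sums, Cbr-spe-27 alone made up 65.0, 31.8 and 10.2 CPM, and it had at most 1.24 CPM in any other library. The height of the gu163 sums over gu167 thus rests largely on that gene. Cbr-spe-10 had no count in any library. Of 22 cuticle and molting markers, all tested, 3 were called higher, with sums of 13453 to 30595 CPM in gu163, 9677 to 12878 CPM in AF16 and 3953 to 6250 CPM in gu167. The intestine, muscle, neuron, and coelomocyte and gland lists had 1, 0, 2 and 1 called higher of 11, 12, 15 and 4 tested. Those called, Cbr-cpr-1, Cbr-cat-2, Cbr-flp-1 and Cbr-phat-3, met the expression rule themselves, as did the called cuticle genes Cbr-col-36, Cbr-col-71 and Cbr-col-158. Of the sperm genes called, Cbr-spe-27 and Cbr-spe-41 met it too. For these genes the call adds nothing to the rule. The yolk list had 0 of 3 called higher. Its sum was 427 CPM in gu167 replicate 3 and 14.5 to 60.9 CPM in every other library. Of the 107 marker genes in the table not all were tested, and none of those tested was called lower. The part of any of these tissues in the levels of the 126 genes was not tested.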

How the data were processed

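The authors deposited unnormalized whole read counts for each gene and library, and their per-library and joint tables hold equal counts. Trim Galore, FastQC, STAR and DESeq are named, without roles, per the submitters' processing notes. The sources used here name no version, genome build, annotation, counting tool or strand setting. Per the labels' protocols, RNA was extracted with TRIZOL, cleared of ribosomal RNA and read from a single end on an Illumina HiSeq instrument. Reads of overlapping or near-identical genes therefore cannot be assigned with certainty.

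The members, the marker lists and the naming rule were chosen with earlier results of these data known. The selection used CPM on library totals. Of the identifiers, 22727 matched a RefSeq gene table of assembly CB4 and 195 did not. None of the 126 selected genes was unmatched. The table gave symbols and gene order only. The placed chromosome and separate sequences share a name in it and were split where start positions fell back, so the chromosome V sequence of 27 genes rests on this split, and genes of unknown chromosome were left out of the order. Of consecutive genes in this order, 99.3% were also consecutive in the count table.

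The count test was that of edgeR 4.0.16 under R 4.3.3 (TMM scaling, filterByExpr at minimum count 10, robust quasi-likelihood F tests, all 9 libraries in 1 fit of 3 strains, Benjamini-Hochberg adjustment over all 12507 genes left). The threshold was an adjusted p under 0.05. The submitters' stated FDR can be read as 0.05 or 0.0005, and 0.0005 was an alternative. The SE was derived from the F statistic. The fits were tested on simulated counts. DESeq2 1.42.0 and limma-voom (limma 3.58.1), RLE and upper-quartile scaling, no filter, a fit of only the strains compared, a replicate block and leaving out libraries were alternatives.

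Genes named in the text are the 10 highest by mean CPM in gu163, the 10 with the largest ratio among means of at least 5 CPM, all runs of 3 or more and the 5 pairs with the highest mean, genes called in gu167, genes at the thresholds, named neighbours called, the strains' own genes and marker genes. Families named by sequence were part of the rule and were not built. Other genes named, such as those with no count in AF16, those over 4-fold apart in gu163 and the other genes of the V and II stretches, were chosen after their values were seen. Same-numbered libraries of AF16 and gu163 had correlated deviations of -0.29, 0.19 and -0.16. The values were -0.28, -0.07 and -0.24 for AF16 and gu167, and 0.23, -0.08 and 0.25 for gu163 and gu167. The numbers are therefore not shown to pair the libraries.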

Additional observations from a re-analysis of the deposited data

How the results depend on the processing

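Under TMM-scaled totals and under DESeq2 size factors the rule again selected 126 genes each, sharing 107 and 106 with those described. It selected 76 at a ratio of at least 3, 68 at a level of at least 5 CPM, and 130 to 175 without 1 library. Genes next to another selected gene numbered 22 at a ratio of at least 3, 23 at 5 CPM, and 35 to 50 without 1 library, alternatives chosen after seeing the data. At an adjusted p under 0.0005, 23 selected genes were called higher in gu163, 0 in gu167, and 1 named neighbour and 6 markers higher in gu163. Selected genes called higher in gu167 numbered 5 with DESeq2, 1 with limma-voom, 1 with only the AF16 and gu167 libraries, and 1 to 3 without 1 library (1 without AF16 replicate 1, gu167 replicate 2 or gu167 replicate 3). Those called lower in gu167 numbered 4 with DESeq2 and 0 to 2 without 1 library (1 without AF16 replicate 1, 2 without AF16 replicate 3). Without 1 library 107 to 113 selected genes were called higher in gu163. Named neighbours called higher numbered 11 with 2 genes on each side and 2 to 6 without 1 library. The 1 named neighbour called lower was lost (0 called) with RLE scaling, limma-voom, no filter, only the 2 strains, the replicate block, 0.0005 and in the fit that left out replicate 3 of AF16 and of gu167, and 0 to 1 were called without 1 library. Markers called lower numbered 1 with DESeq2, 1 with only the 2 strains and 0 to 1 without 1 library. The yolk gene Cbr-vit-2 had a log2 fold change of 0.92, and of -0.93 (adjusted p of 0.874) to 3.37 without 1 library, the lowest without gu163 replicate 2. On the chromosome II stretch, neither CBG21953 nor CBG21952 was called, and their log2 fold changes ran from -0.26 to 0.43 and from -0.15 to 0.28 without 1 library, and were -0.26 and -0.15 without replicate 3 of AF16 and of gu167. The cause of these changes was not tested.

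With the replicate number as a block, 118 selected genes were called higher in gu163 and 2 in gu167, and 5 named neighbours higher. The numbers are not shown to pair libraries. Sequence families among the selected genes and promoter motifs were planned and not run. The number of libraries, 3 a strain, and the counting depth limit the genes near 1 CPM, where 3 counts equal 0.213 to 0.362 CPM.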
